A study of Mus musculus with 6 samples.

Results

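The anaphase-promoting complex is the ubiquitin ligase described here, through 10 of its genes: the subunits Anapc1, Anapc2, Anapc4, Anapc5, Anapc10, Anapc11, Cdc16, Cdc23 and Cdc27, and the activator Fzr1. The members are all probe sets that the platform annotation gives to exactly 1 of these symbols, and they were chosen by name and not by signal. They number 29 of the 45101 probe sets of the array, and the 10 genes stand among 18194 genes that the array names. A probe set is a group of short probes near the 3' end of a transcript. Several probe sets of 1 gene are not replicates, and their target positions were not given in the sources used here. Of the 29, 26 passed a filter on dim probe sets and were tested, with at least 1 for each gene.

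The arrays measured RNA of elongating spermatids, the haploid cells whose nucleus condenses after meiosis. Testes of wild-type ICR males, an outbred strain, received a lentiviral vector with a GFP marker when the mice were 5 weeks old. The cells carrying GFP were purified after 1 more week, and the labels call the animals adult. The 3 groups of 2 arrays each carried the empty vector pSilencer (control), a hairpin against Caf1 (shCaf1) or a hairpin against Miwi (shMiwi), and all 3 groups, the control included, received the vector and GFP. Miwi is the PIWI protein encoded by Piwil1, and Caf1 is taken to be the deadenylase Cnot7. The labels call the arrays of a group biological replicates, and the number of mice behind each array is not given in the sources used here.

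The anaphase-promoting complex attaches ubiquitin chains to proteins and so marks them for the proteasome. In dividing cells it removes securin and the B-type cyclins, which lets chromosomes separate and cells leave division. It acts only with an activator, Cdc20 or the Fzr1 product Cdh1, and each of these helps it to bind a substrate. In late spermatids, which no longer divide, it is known for marking MIWI for degradation, which is the reason to read its genes in these arrays. The arrays measured transcripts and not the activity of the ligase.

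Markers of elongating spermatids were present on 5 arrays, together with markers of other cell types, and the library labelled control 1 went against its label. On that library, 5 of 12 marker genes of elongating spermatids lay above the array's 40th percentile, against 12 of 12 on each other array. The protamine gene Prm2 read 110 on it and 237281 on control 2, and the transition protein gene Tnp1 read 39 and 82532. Markers of pachytene spermatocytes, an earlier stage, lay above that percentile in 10 of 10 cases on every shRNA array, 9 of 10 on control 2 and 4 of 10 on control 1. Some markers of cells that the sort should leave out were bright on the hairpin arrays. The Leydig cell gene Cyp17a1 read 10816 to 12922, the spermatogonial gene Id4 read 6625 to 8326 and the Sertoli cell gene Clu read 18287 to 23196. On control 1 and control 2 they read 340 and 2120 (Cyp17a1), 15 and 665 (Id4) and 905 and 18738 (Clu). Other markers of the same cell types went the other way. On the hairpin arrays the Leydig cell gene Star read 703 to 770, against 2556 and 905 on control 1 and control 2. The spermatogonial gene Gfra1 read 106 to 118, against 441 and 371, and the Sertoli cell gene Amh read 8 to 54, against 889 and 1984. Hybridization control RNAs, added in a fixed amount, read 82.3 and 16.2 times the shRNA mean on control 1 and control 2, and between 0.806 and 1.20 times on the shRNA arrays. The target of shMiwi, Piwil1, read 9780 and 10392 in shMiwi, 21881 and 22442 in shCaf1, and 1445360 and 292542 in control. Against control Piwil1 was lower in shMiwi (-6.01, limma adjusted p = 0.00675) and also in shCaf1, whose hairpin does not target it (-4.87, limma adjusted p = 0.0111). Scaled on the hybridization controls these differences were -0.62 and 0.12 and did not pass. For shCaf1, the brightest Cnot7 probe set read 4365 and 5012 in shMiwi against 3633 and 4330 in shCaf1, a log2 difference of 0.24 that did not pass (limma adjusted p = 0.307). Another Cnot7 probe set, 1430519_a_at, read 645 and 605 against 388 and 353 and passed as higher in shMiwi (0.73, limma adjusted p = 0.032).

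The replicates of the shRNA groups lay close together for the complex. The median absolute log2 difference between the replicates over the 26 tested probe sets was 0.107 in shCaf1, 0.170 in shMiwi and 1.90 in control. Over all 27022 tested probe sets the same measure was 0.185, 0.218 and 1.28. The shRNA groups are therefore compared first, on their 4 arrays alone. Signals are given on the deposited scale, and each difference is of log2(signal + 16), which understates the change of dim probe sets.

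**Figure D1:**
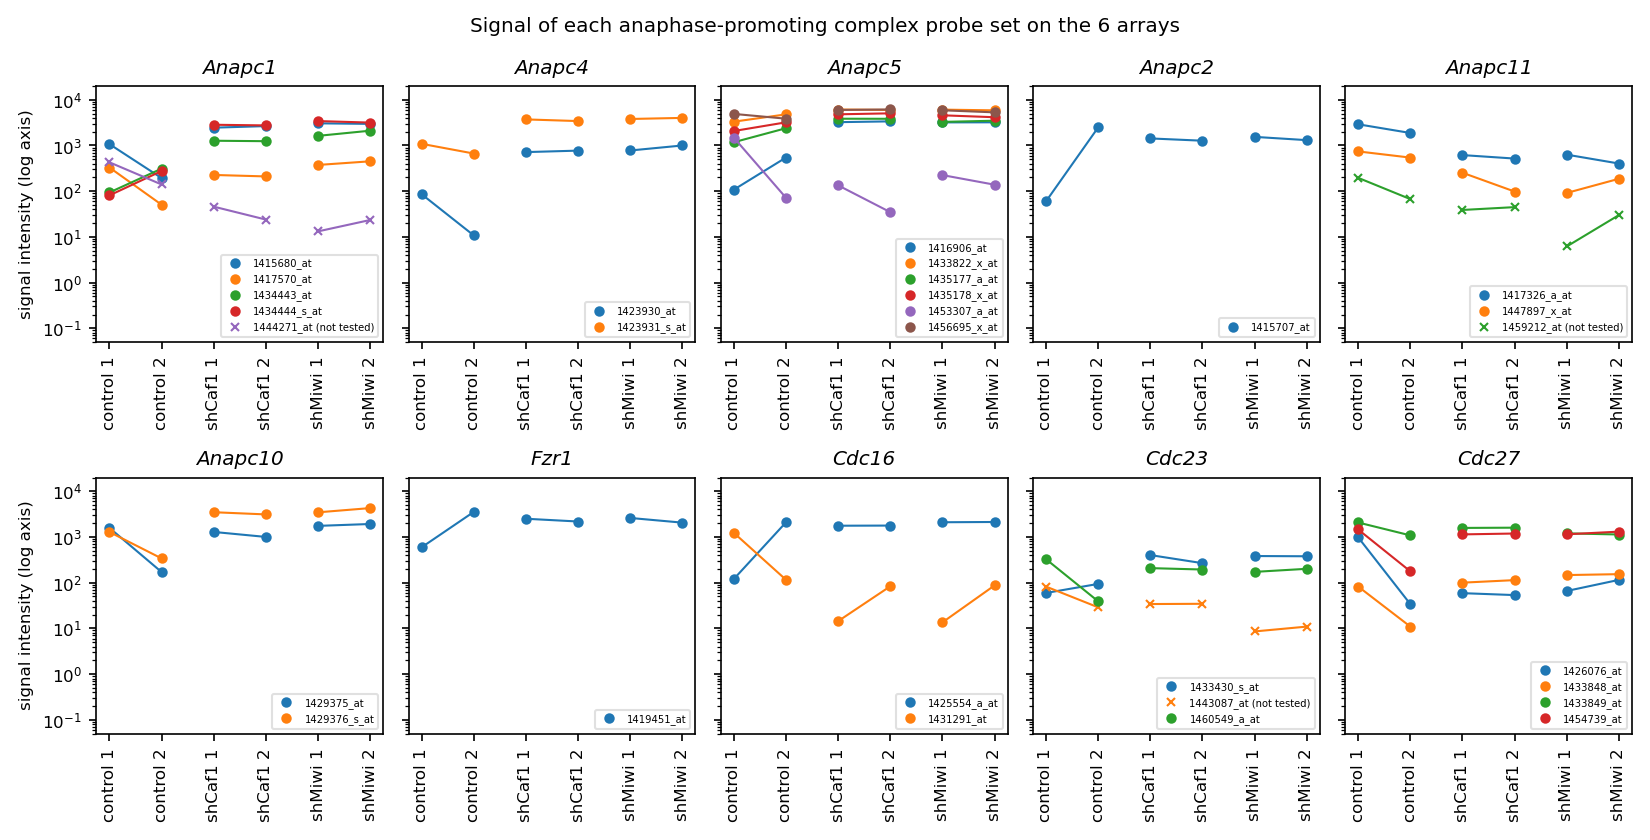
Signal intensity (log axis) of each probe set of the 10 genes on the 6 arrays, 1 panel per gene and 1 colour per probe set; lines join the 2 replicates of a group and crosses mark the 3 probe sets that were not tested. The shRNA replicates lie close together for most probe sets, while the 2 control arrays differ by up to 5.04 on the log2 scale.

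Between the shRNA groups, Anapc1 and Anapc10 each had 1 probe set that was higher in shMiwi than in shCaf1, and the other 24 tested probe sets did not pass. Those 2 are 7.69% of the 26, all higher, against 3.81% of all tested probe sets called higher and 3.52% called lower. Over both directions the share of all tested probe sets was 7.33%, so the count for the complex is near the background. The median log2 difference over the members was 0.10, against 0.02 over all tested probe sets. The groups did not overlap in 16 cases, with 11 members above and 5 below, where 28.8% and 25.3% of all tested probe sets lay above and below.

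The sites shown next lie at the starts of Anapc1 and Anapc10, the genes with a called probe set, and let a reader see which letters these starts share. The RefSeq promoter table (GRCm38.p6) held 9 of the 10 genes, in 11 windows of 300 bases around a gene start. The motifs searched, on both strands, were TGACGTCA (the cAMP response element bound by CREM, a transcription factor of spermatids) and AAGATGGC (the core of the YY1 motif), which do not overlap each other here.
Anapc1, YY1 core, chr2:128687348-128687377, minus strand: tcgggaaatccAAGATGGCtccagccattt
Anapc10, YY1 core, chr8:79711629-79711658, plus strand: cgccaccggcaAAGATGGCggtgcacagcc
Anapc10, cAMP response element, chr8:79711732-79711761, plus strand: gatgacgttggTGACGTCAttgcgccgcga

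Capitals mark the motif. Of the 9 genes, Anapc1 and Anapc10 held AAGATGGC, in 3 of their 11 windows, against 2.75% of all 32851 windows. Anapc10 alone held TGACGTCA, in 2 of the 11 windows, against 1.79% of all. A site in overlapping windows of 1 gene is counted once per window. The 2 windows with TGACGTCA hold the same site, and the windows with AAGATGGC hold only the sites shown. Counted from the gene start of the window that each site was read from, AAGATGGC begins at 29 in Anapc1, inside the gene. In Anapc10 it begins at -123, and TGACGTCA begins at -20. The motifs were picked after the sequences and the signals had been seen, so the matches are a description.

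Among the scaffold subunits, Anapc1, the largest subunit and the base on which the others assemble, gave the largest called difference. Its probe set 1417570_at read 375 and 450 in shMiwi, 226 and 210 in shCaf1, and 329 and 50.5 in control. The shMiwi arrays were both above the shCaf1 arrays, by a log2 difference of 0.87 (SE 0.18, 95% interval 0.45 to 1.28, n = 2 per group, limma adjusted p = 0.0305), or 1.82-fold. Anapc1 probe set 1434443_at read 1623 and 2105 in shMiwi against 1269 and 1240 in shCaf1, a difference of 0.55 that did not pass (limma adjusted p = 0.0604). The remaining tested Anapc1 probe sets, 1415680_at and 1434444_s_at, differed by 0.24 and 0.23 (limma adjusted p = 0.252 and 0.251). All 4 tested Anapc1 probe sets thus had both shMiwi arrays above both shCaf1 arrays, while the fifth, 1444271_at, went the other way at 13 and 23 against 46 and 24 and was too dim to be tested.

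Anapc4 and Anapc5 belong to the platform that joins the scaffold to the catalytic core. Anapc4 read 776 and 999 in shMiwi against 716 and 771 in shCaf1 on 1423930_at, and 3799 and 4010 against 3716 and 3417 on 1423931_s_at. These differences of 0.24 and 0.13 had 95% intervals of -0.13 to 0.61 and of -0.13 to 0.39 and did not pass. For Anapc5, probe set 1416906_at read 3197 and 3212 in shMiwi against 3233 and 3367 in shCaf1. Its difference was -0.04 (SE 0.11, 95% interval -0.29 to 0.21). Of the other Anapc5 probe sets, the bright 4 differed by -0.18 to -0.02, and the dim 1453307_a_at, at 225 and 138 against 134 and 35, by 1.14 (SE 0.46), and none of them passed.

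The catalytic subunits showed no call. Anapc2, the cullin-like subunit, read 1541 and 1308 in shMiwi against 1425 and 1270 in shCaf1, a difference of 0.08 (95% interval -0.25 to 0.40). Anapc11, the RING subunit that holds the ubiquitin-conjugating enzyme, read 629 and 402 against 616 and 517 on 1417326_a_at, and 91 and 187 against 253 and 98 on 1447897_x_at. The groups overlapped on both Anapc11 probe sets, and the differences were -0.16 (95% interval -0.66 to 0.34) and -0.25 (95% interval -1.21 to 0.71). The third Anapc11 probe set, 1459212_at, was not tested and read between 6.2 and 45 on the shRNA arrays.

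For substrate recognition the complex uses Anapc10 together with its activator. Anapc10 probe set 1429375_at read 1748 and 1921 in shMiwi, 1287 and 1002 in shCaf1, and 1579 and 171 in control. Both shMiwi arrays were above both shCaf1 arrays, by 0.68 (SE 0.15, 95% interval 0.33 to 1.03, n = 2 per group, limma adjusted p = 0.0355), or 1.61-fold. The brighter Anapc10 probe set, 1429376_s_at, read 3461 and 4284 against 3478 and 3114, so that its groups overlapped, with a difference of 0.23 that did not pass (limma adjusted p = 0.35). Fzr1, which encodes the activator Cdh1, read 2604 and 2057 in shMiwi against 2504 and 2178 in shCaf1. Its difference was -0.01, with a 95% interval of -0.35 to 0.32.

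Cdc16, Cdc23 and Cdc27 form the arm of repeat proteins that holds the activator and Anapc10. Cdc16 read 2099 and 2126 in shMiwi against 1762 and 1775 in shCaf1 on 1425554_a_at, higher on both arrays by 0.25 but without passing (limma adjusted p = 0.231). Its other probe set, 1431291_at, read 14 and 87 against 14 and 83 and separated replicate 1 from replicate 2 rather than the groups. Cdc23 differed by 0.21 on 1433430_s_at and by -0.10 on 1460549_a_at, with overlapping groups on both. Its probe set 1443087_at was not tested and read 8.6 and 11 against 34 and 34.

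The 4 Cdc27 probe sets went in different directions. Probe set 1433849_at read 1199 and 1132 in shMiwi against 1577 and 1596 in shCaf1, a difference of -0.44 (95% interval -0.73 to -0.15) that did not pass over all probe sets (limma adjusted p = 0.0708). Probe sets 1433848_at and 1426076_at were higher in shMiwi on both arrays, at 0.44 and 0.52, and did not pass (limma adjusted p = 0.288 and 0.374). Probe set 1454739_at overlapped, at 0.07. The difference between probe sets of this gene was not tested.

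For 14 of the 26 tested members, or 53.8%, the 95% interval of the difference lay within 1.5-fold in either direction, against 27.2% of all tested probe sets. The median SE was 0.15 over the members and 0.20 over all tested probe sets. These intervals give the range of differences that remain compatible with each value and do not show that the groups are equal.

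**Figure D2:**
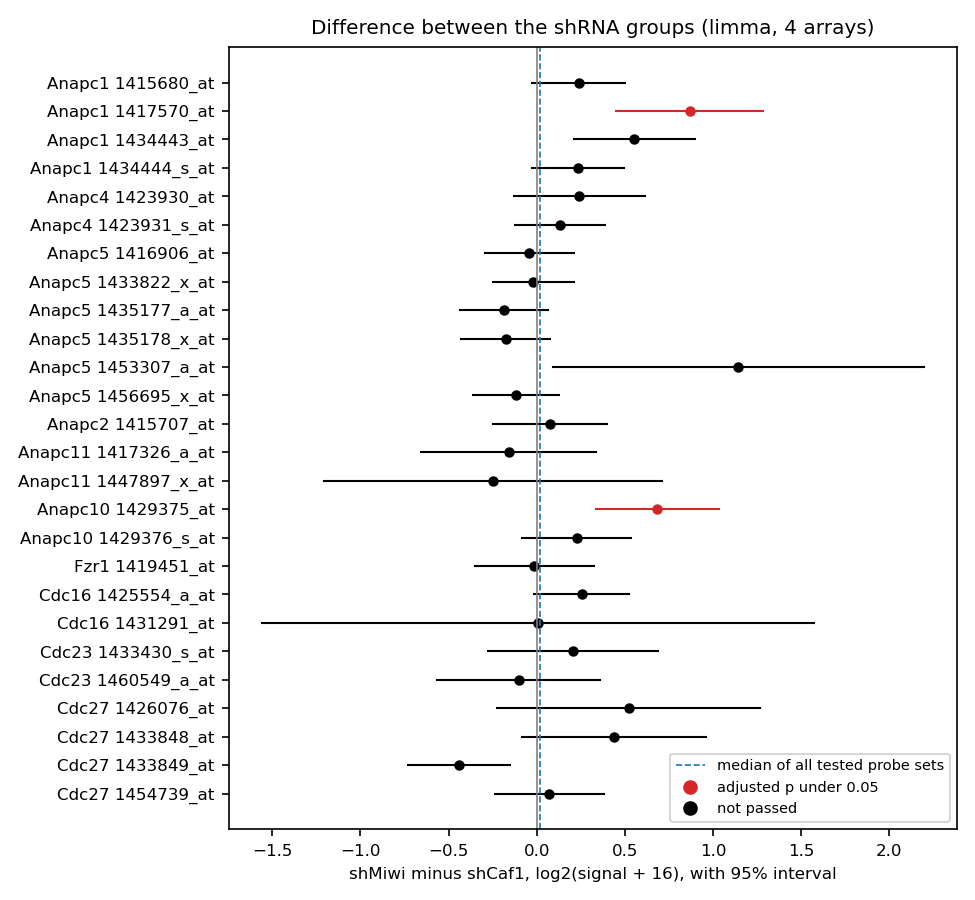
Difference of shMiwi minus shCaf1 in log2(signal + 16) for the 26 tested probe sets (points), with the 95% interval of the limma fit on 4 arrays (lines); red marks an adjusted p under 0.05 and the dashed line the median of all tested probe sets. Only Anapc1 1417570_at, at 0.87, and Anapc10 1429375_at, at 0.68, are red.

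Both calls depended on the fit. The limma fit on all 6 arrays, whose spread includes the control arrays, called 0 of the 26 members and 0 of all probe sets, with 0 and 264 at an unadjusted p under 0.05, and the fit without an intensity trend called 0 members (5 at an unadjusted p under 0.05). Without shCaf1 replicate 2 neither Anapc1 nor Anapc10 passed (limma adjusted p = 0.166 and 0.251), and Anapc1 was also lost without shCaf1 replicate 1 or shMiwi replicate 2 (limma adjusted p = 0.0788 and 0.0544). Scaled on the hybridization controls, 11 of the 26 members, or 42.3%, were higher in shMiwi and 0 lower, where 25.5% of all tested probe sets were higher and 26.4% passed in either direction. That scale raised the median of all from 0.02 to 0.38 and that of the members to 0.50.

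Markers of elongating and round spermatids, but not those of earlier germ cells, had calls between these groups. All 12 elongating spermatid markers read lower on both shMiwi arrays than on both shCaf1 arrays, and 9 of them passed as lower, with a median difference of -0.64. Their summed signal was 143059 and 130918 in shMiwi, 199471 and 213042 in shCaf1, and 5434 and 714119 on the library labelled control 1 and on control 2. Over all tested probe sets 3.52% were called lower and 3.81% higher, and 25.3% had both shMiwi arrays below both shCaf1 arrays. Of 9 round spermatid markers, 3 were lower and 0 higher, with a median of -0.37. Of 10 pachytene spermatocyte markers, 0 passed, with a median of 0.09 and summed signals of 93294 and 95745 against 96756 and 105862. Of 7 spermatogonial markers, 0 passed (median 0.13), and of the markers of Sertoli, Leydig and peritubular myoid cells, 1 of 8, 1 of 4 and 2 of 5 were higher in shMiwi. Of the tested markers of endothelial cells (4) and of macrophages and leukocytes (5), 0 passed. The part of these markers in the higher Anapc1 and Anapc10 signals was not tested, and in a bulk sample fewer cells of a stage and less RNA per cell cannot be told apart.

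The other genes of the pathway were read from lists of 41 genes, 39 of which have a probe set named for them alone; Ccnb1 and Sgol1 have none. Among the 5 core subunits outside the 10 genes, 0 of 14 tested probe sets passed between the shRNA groups (3 at an unadjusted p under 0.05), with a median of -0.04. Over all tested probe sets 7.33% passed, which in lists of this size amounts to few probe sets. Anapc13, a small subunit of the repeat-protein arm, read 2006 and 1849 in shMiwi against 2350 and 2603 in shCaf1, below on both arrays by -0.36 (limma adjusted p = 0.117). Cdc26, which holds Cdc16 in the arm, differed by 0.22 on its brightest probe set, 1423987_at, and by -1.22 on the dim 1456860_at, which read 23 and 43 against 103 and 88 (limma adjusted p = 0.344 and 0.066).

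Between the shRNA groups 3.81% of all tested probe sets were higher in shMiwi and 3.52% lower. Of the activator Cdc20 and the ubiquitin-conjugating enzymes, 1 of 17 tested probe sets (5.88%) was higher in shMiwi and 0 lower. It belongs to Ube2d2a, an enzyme that can start ubiquitin chains, and 1416477_at read 4004 and 4023 in shMiwi against 2777 and 2883 in shCaf1, a difference of 0.50 (SE 0.11, limma adjusted p = 0.0332). The other Ube2d2a probe sets that were tested differed by 0.25, 0.25 and 0.36 and did not pass. Cdc20 on 1439377_x_at read 15519 and 14564 against 17863 and 18775, a difference of -0.28 that did not pass (limma adjusted p = 0.106). Cdc20 probe sets 1416664_at and 1439394_x_at differed by -0.13 and -0.24 and did not pass (limma adjusted p = 0.518 and 0.394). Ube2c, which starts chains on substrates of the complex, differed by -0.004 and Ube2s, which lengthens them, by 0.01, with 95% intervals that hold 0.

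Among the inhibitors and spindle checkpoint genes, 0 of 18 tested probe sets (2 at an unadjusted p under 0.05) passed between the shRNA groups, against 7.33% of all. Fbxo43, the inhibitor known from eggs and meiosis, was too dim to be tested and read 18 and 31 in shMiwi against 49 and 47 in shCaf1. Among the substrates, 1 of 35 tested probe sets (2.86%) was lower in shMiwi, against 3.52% of all. That was Piwil1, the gene targeted by the hairpin, at -1.14 (SE 0.09, limma adjusted p = 0.00105). The securin gene Pttg1 read 18587 and 14821 against 22207 and 23042 on 1438390_s_at, lower on both arrays by -0.45 but without passing (limma adjusted p = 0.0554). Its other probe sets differed by -0.37 and -0.11 and did not pass. Against control, where 16.9% of all tested probe sets were higher and 26.4% lower in shMiwi, the core subunits had 1 higher and 4 lower of 14, the activators and enzymes 2 and 4 of 17, the inhibitors 4 and 2 of 18 and the substrates 7 and 8 of 35. In shCaf1, where 15.5% and 26.0% of all were higher and lower, the counts were 1 and 3, 0 and 4, 3 and 1, and 6 and 8. The shares for the substrates, 20.0% and 22.9% in shMiwi, lie near the background.

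**Figure D3:**
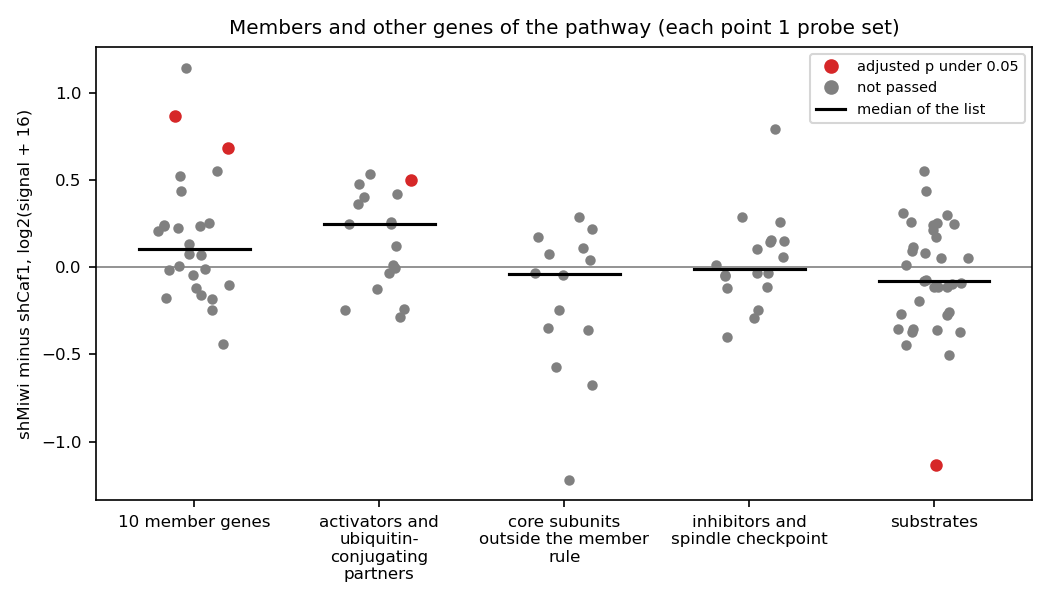
Difference of shMiwi minus shCaf1 in log2(signal + 16) for each tested probe set (points, spread sideways at random) of the 10 genes and of 4 lists of other pathway genes; bars are medians and red marks an adjusted p under 0.05. The medians lie between -0.08 and 0.25, and the lowest red point is Piwil1 at -1.14.

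Against the empty vector, the members that passed were mostly higher in the hairpin groups, and Anapc11 was lower. In shMiwi 8 of 26 probe sets were higher and 2 lower, or 30.8% and 7.69%, where 16.9% and 26.4% of all tested probe sets were called higher and lower. In shCaf1 7 were higher and 1 lower, or 26.9% and 3.85%, against 15.5% and 26.0% of all. The higher calls of both groups include Anapc4 1423930_at and Cdc23 1433430_s_at, which passed the filter through the hairpin arrays. The median difference over the members was 1.36 in shMiwi and 1.11 in shCaf1, and over all tested probe sets -0.20 and -0.25. On 16 members both shMiwi arrays lay above both control arrays, and on 3 below, against 30.6% and 40.3% of all tested probe sets, and in shCaf1 13 and 3, against 30.0% and 40.9%. Both comparisons share the control arrays, one of which goes against its tissue label. Over both directions 43.2% and 41.5% of all tested probe sets were called.

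The higher calls came from the scaffold, from Anapc10 and from Cdc23. Anapc1 rose on 1434444_s_at, from 81 and 276 on the control arrays to 3417 and 3165 in shMiwi and 2838 and 2747 in shCaf1. The groups were far apart, with log2 differences of 4.30 and 4.06 (SE 0.59, n = 2 per group, limma adjusted p = 0.00646 and 0.00785). On control 1 this probe set and 1434443_at, at 94, read below that array's 40th percentile of 183. On control 2 both read above that array's percentile of 142. Anapc1 1434443_at rose by 3.30 and 2.75, and 1415680_at rose by 2.66 in shMiwi (limma adjusted p = 0.0466) and stood at 2.43 in shCaf1 without passing (limma adjusted p = 0.0622). The probe set that separated the hairpin groups, 1417570_at, did not pass against control (1.49 and 0.63). The untested Anapc1 probe set, 1444271_at, went the other way. It read 428 and 140 in control, 13 and 23 in shMiwi and 46 and 24 in shCaf1, with both hairpin groups below both control arrays.

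Anapc4 rose on both of its probe sets. On 1423930_at it read 86 and 11 in control, 776 and 999 in shMiwi and 716 and 771 in shCaf1, differences of 4.10 and 3.86 (SE 0.68, limma adjusted p = 0.00899 and 0.0112). Both control values lie below the 40th percentile of their arrays, 183 and 142. The probe set thus passed the filter through the hairpin arrays, and its rise is measured against signal near background. On 1423931_s_at Anapc4 rose by 2.18 and 2.05. Anapc5 rose on 1416906_at, from 108 and 544 to between 3197 and 3367 on the hairpin arrays, by 3.61 and 3.65 (SE 0.75, limma adjusted p = 0.0158 and 0.0162). In this probe set Anapc5 also read below the 40th percentile on control 1, but not on control 2. Its 4 other bright probe sets stood at 0.36 to 1.19 in both groups and did not pass, with both hairpin groups above both control arrays on each of them. Anapc5 1453307_a_at, at 1484 and 72 in control, went the other way. It stood at -0.91 in shMiwi and -2.06 in shCaf1 and did not pass (limma adjusted p = 0.628 and 0.288).

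Anapc10 rose on 1429376_s_at, from 1285 and 339 in control, by 2.51 in shMiwi and 2.28 in shCaf1 (SE 0.68, limma adjusted p = 0.0338 and 0.0459). Its other probe set, 1429375_at, stood at 1.76 and 1.08 and did not pass. Cdc23 rose on 1433430_s_at, from 60 and 94 to 383 and 378 in shMiwi and 401 and 267 in shCaf1, by 2.12 and 1.92 (SE 0.40, limma adjusted p = 0.0121 and 0.0167). Both control values lie below the 40th percentile of their arrays here too, so the probe set passed the filter through the hairpin arrays and its size is set against signal near background. Cdc23 1460549_a_at stood at 0.56 and 0.66 and did not pass. For Anapc10 and Cdc23 alike, 1 of 2 tested probe sets carried the call.

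Anapc11 was the gene with lower calls. On 1417326_a_at it read 2906 and 1875 in control against 629 and 402 in shMiwi and 616 and 517 in shCaf1. The hairpin arrays all lay below the control arrays, by -2.18 and -2.02 (SE 0.43, limma adjusted p = 0.0136 and 0.0176). On 1447897_x_at it was lower by -2.14 in shMiwi (limma adjusted p = 0.0351) and stood at -1.89 in shCaf1 (limma adjusted p = 0.0514). Scaled on the hybridization controls these differences turned to 2.85 and 2.63 on the first probe set and to 2.25 and 2.14 on the second.

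Anapc2, Fzr1, Cdc16 and Cdc27 had no call against control. Anapc2 read 60 on the library labelled control 1 and 2475 on control 2, with the hairpin arrays between 1270 and 1541. Fzr1 read 594 and 3536, with the hairpin arrays between 2057 and 2604, and Cdc16 1425554_a_at read 120 and 2088, with the hairpin arrays between 1762 and 2126. The hairpin groups thus lay between the control arrays for Anapc2 and Fzr1. Without control 1, Anapc2 turned to -0.79 in shMiwi and -0.87 in shCaf1, and Fzr1 to -0.61 and -0.60, and all 4 passed as lower (limma adjusted p = 0.00243, 0.00155, 0.0132 and 0.0149). Without control 2 the same 4 passed as higher, Anapc2 at 4.24 and 4.17 and Fzr1 at 1.93 and 1.95, so the direction depends on which control array is used. The dim Cdc16 probe set 1431291_at stood at -2.88 in both groups, and the Cdc27 probe sets at -1.11 to 1.69 in shMiwi and -1.63 to 1.25 in shCaf1.

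**Figure D4:**
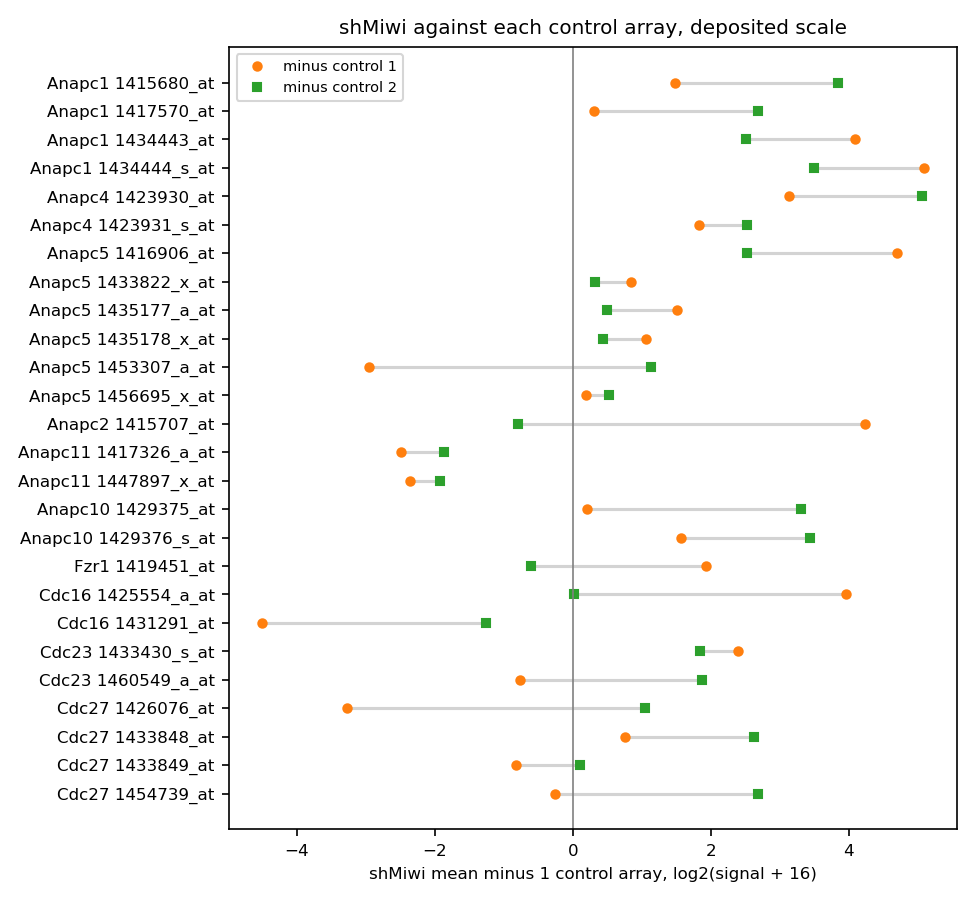
Mean of the shMiwi arrays minus each control array alone, in log2(signal + 16) on the deposited scale, for the 26 tested probe sets; circles are against control 1, squares against control 2, and grey lines join them. In 16 cases both points lie above 0, in 3 both lie below 0, and in 7, among them Anapc2 and Fzr1, they lie on opposite sides.

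Scaling moved these counts as well. With each array centred on its median, 17 members were higher in shMiwi and 15 in shCaf1, and 0 lower, where 46.9% and 44.0% of all tested probe sets passed. With the hybridization controls, 25 passed in each, all higher, where 90.5% and 87.6% of all did, and the median over all tested probe sets moved from -0.20 to 3.58 and from -0.25 to 3.15.

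The control arrays gave opposite signs for 7 of 26 members in shMiwi and 9 of 26 in shCaf1, or 26.9% and 34.6%, against 25.5% and 25.6% of all tested probe sets. Without control 1, 21 members passed in shMiwi (17 higher and 4 lower) and 22 in shCaf1 (18 and 4), where 79.7% and 78.5% of all tested probe sets passed. Without control 2, 21 passed in shMiwi and 23 in shCaf1, where 84.0% and 83.9% of all did. In these fits the lone control array is assumed to vary like the hairpin arrays. With a spread estimated for each group, 4 members (15.4%) passed in shMiwi, where 11.8% of all did. They are Anapc1 1434443_at and 1434444_s_at, Anapc4 1423930_at and Anapc5 1416906_at. In shCaf1 3 members (11.5%) passed, the same ones other than 1434443_at, where 9.88% of all did. Both shares lie near the background, and Anapc4 1423930_at passed the filter through the hairpin arrays. All of these probe sets read below the 40th percentile on control 1. On the scale of the hybridization controls all 26 members were higher than both control arrays in both hairpin groups, as were 97.3% and 96.0% of all tested probe sets.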

How the data were processed

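Amplified and labelled RNA of the sorted cells was read on Affymetrix 3' expression arrays for mouse, according to the labels. The deposited table gives 1 linear signal intensity for each probe set on each array. MAS5 is the method in the submitters' processing notes, with its version and the genome build not given in the sources used here. All 6 columns of deposited intensities share a 2% trimmed mean of 500, which scales up an array that has fewer bright probe sets. Detection calls were not used here.

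Each signal was increased by 16 and taken to log2. Testing left out 64 Affymetrix control probe sets and kept the 27022 whose mean log2 over all 6 arrays exceeded the 40th percentile. That mean spans every group, so a probe set bright in 1 group could pass. Genes were named from probe sets with 1 symbol; RefSeq identifiers (GRCm38.p6) matched 99.1% of these genes and changed 0 symbols.

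The tests came from limma 3.58.1 (R 4.3.3), with moderated variances that follow signal level, Benjamini-Hochberg adjustment over all tested probe sets and calls at an adjusted p under 0.05. shMiwi against shCaf1 used the 4 hairpin arrays (2 residual degrees of freedom), and each group against control used all 6 (3 residual degrees of freedom). The fits were tested on simulated data. With 2 arrays a group, the number of arrays limits the precision. Alternatives changed the added constant, filter, scaling (quantile, median, or 18 hybridization control probe sets), variance model, a block for the replicate number and the arrays used. Named genes are all members, pathway genes past the test between the hairpin groups, and a set of pathway genes given whatever their values. The members, lists and motifs were chosen with earlier results of these data known.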

Additional observations from a re-analysis of the deposited data

How the results depend on the processing

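Between the hairpin groups the 2 calls (Anapc1 and Anapc10) were the same with 1 or 64 added, a filter at the 60th percentile and median centring, and quantile normalization added Cdc27 1433849_at as lower (-0.50, limma adjusted p = 0.0496). The count became 0 without a filter, without an intensity trend and with all 6 arrays (6, 5 and 0 at an unadjusted p under 0.05), 11 with hybridization control scaling, and 0 (without shCaf1 replicate 2) to 4 (without shMiwi replicate 1) when 1 array was left out. Over all probe sets the limma calls went from 1981 to 568, 15, 0 and 7145 under these settings and to 1302 with median centring. Replicate numbers are shared by the groups, but the labels tie them to no litter or batch, and deviations of same-numbered arrays correlated at 0.18 between shCaf1 and shMiwi, 0.06 between control and shCaf1 and 0.004 between control and shMiwi over probe sets. With the replicate block 5 members passed (4 higher and 1 lower) against 2 without it, and 5458 of all probe sets. Against control the block gave 8 calls in shMiwi and 7 in shCaf1, where 38.5% and 36.5% of all probe sets passed.

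Against control the counts of 10 in shMiwi and 8 in shCaf1 became 17 and 15 with median centring, 25 and 25 with hybridization control scaling, and 4 and 3 with a spread per group. Leaving out 1 array gave 0 (either shMiwi array) to 21 (either control array) in shMiwi and 0 (either shCaf1 array) to 23 (control 2) in shCaf1. In the fits that gave 0, 0 of all 27022 probe sets passed too, and 8 and 7 members had an unadjusted limma p under 0.05. Without shCaf1 replicate 1 or 2, 5 members (19.2%) passed in shMiwi, where 24.7% and 24.6% of all did, and without either shMiwi array 2 members (7.69%) passed in shCaf1, where 21.8% of all did. Hybridization scaling turned Anapc11 1417326_a_at to 2.85 (shMiwi) and 2.63 (shCaf1), Anapc11 1447897_x_at to 2.25 and 2.14, Anapc5 1453307_a_at to 3.05 and 1.58, Cdc27 1426076_at to 2.38 and 1.53, and Cdc27 1433849_at in shMiwi to 4.54, the last also with median centring (1.22). Over the arrays left out, Anapc2 ranged from -0.79 to 4.24 in shMiwi and from -0.87 to 4.17 in shCaf1, Fzr1 from -0.61 to 1.93 and from -0.60 to 1.95, and Cdc23 1460549_a_at from -0.76 to 1.87 and from -0.66 to 1.98. In shCaf1, Anapc1 1417570_at ranged from -0.56 to 1.82, Anapc10 1429375_at from -0.47 to 2.63 and Cdc27 1433849_at from -0.38 to 0.54. The causes were not tested, apart from the fewer arrays or probe sets that a setting itself brings.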
